A study of Mus musculus with 24 samples.

Results

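The core circadian clock genes were followed as a set of 10 of the 24411 genes counted in whole mouse liver, in all 24 libraries. The set was chosen by gene symbol and holds the activators *Arntl*, *Clock* and *Npas2*, the repressors *Per1*, *Per2*, *Per3*, *Cry1* and *Cry2*, and the REV-ERB receptors *Nr1d1* and *Nr1d2*. The study asked how hepatocyte ploidy bears on liver injury by acetaminophen (APAP), a drug that harms hepatocytes at overdose. It used loss of *E2f7* and *E2f8*, atypical E2F factors that promote hepatocyte polyploidization, from development on in LKO mice, whose livers stay enriched in diploid hepatocytes, and in adult HKO mice as a check on the gene loss itself.

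Livers came from male mice 2.5 months of age that had been fasted for about 16 h, and from mice killed 12, 24, 48, 72 or 96 h after 300 mg/kg APAP. LKO mice carried floxed *E2f7* and *E2f8*, an R26R mTmG reporter and Alb-Cre on a mixed, mainly FVB background, and their controls were littermates without Cre, which GEO's labels call WT. HKO mice were floxed mice that received AAV8-TBG-Cre at 2 months of age, and their controls received AAV8-TBG-Null and are called Null controls here. The albumin promoter drives Cre in the liver lineage from development on, and the TBG promoter, carried by an adeno-associated virus, drives it in adult hepatocytes. At 0 h each library was 1 mouse, with 3 HKO, 3 Null control, 4 LKO and 4 control mice. At each later time a library was a pool of 3 mice, 1 pool for LKO and 1 for control. The hour of collection is not given for any animal, and feeding after the fast is not described, so hours since APAP, time of day and feeding state cannot be told apart in the time course.

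The clock is a transcriptional loop. BMAL1, the product of *Arntl*, pairs with CLOCK or NPAS2, binds E-boxes and drives the *Per*, *Cry* and *Nr1d* genes. PER and CRY proteins return to block BMAL1 and CLOCK, and the REV-ERBs encoded by *Nr1d1* and *Nr1d2* repress *Arntl* and *Npas2* through ROR elements. In liver, *Arntl* and *Npas2* therefore peak at the opposite part of the day from *Nr1d1*, *Nr1d2* and *Per3*, *Cry1* peaks late, and *Per1* and *Per2* also answer to glucocorticoids, cAMP and feeding.

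Promoter windows from 250 bases before to 50 bases after a start were held for 9 of the 10 genes in RefSeq (GRCm38.p6), 13 windows in all. They were searched on both strands for clock motifs, given here with the share of 27025 genes that hold each in a window. The motifs were E-box CACGTG (8.09%), E-prime box CACGTT (5.44%), ROR element core TAGGTCA or TGGGTCA (7.35%) and D-box TTATGTAA or TTACGTAA (1.23%). The D-box is the element bound by DBP, TEF and HLF. At least 1 of these motifs was present in 6 of the 9 genes, and the share of all genes with at least 1 was not computed. The stretches around those matches are shown because E-boxes and ROR elements are those named above for the loop, and E-prime boxes and D-boxes are further elements known from clock genes. Each is written 5′ to 3′ on the gene's own strand, capitals mark the match, and the matches shown did not overlap each other.
Arntl, ROR element core 31 bases after the start, chr7:113207531-113207557, plus strand: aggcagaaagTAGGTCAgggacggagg
Per1, E-box 166 bases before a start, chr11:69098753-69098818, plus strand: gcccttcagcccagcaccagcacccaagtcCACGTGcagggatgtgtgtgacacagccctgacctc
Per3, 2 D-boxes 205 and 158 bases before the start, chr4:151044786-151044900, minus strand: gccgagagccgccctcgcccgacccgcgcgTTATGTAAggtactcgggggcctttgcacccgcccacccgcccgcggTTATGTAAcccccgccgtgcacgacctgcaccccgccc
Cry1, E-prime box 79 and E-box 60 bases before the start, chr10:85185079-85185163, minus strand: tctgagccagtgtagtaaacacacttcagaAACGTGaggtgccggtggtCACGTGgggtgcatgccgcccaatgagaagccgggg
Cry2, E-prime box 166 bases before the start, chr2:92434200-92434265, minus strand: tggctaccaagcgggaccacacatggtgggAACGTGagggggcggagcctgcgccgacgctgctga
Nr1d1, E-prime box 28 bases before the start, chr11:98775378-98775435, minus strand: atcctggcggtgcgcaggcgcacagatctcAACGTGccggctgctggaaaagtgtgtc

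*Per3* was thus the only one of the 9 genes with a D-box in its window, and it held 2 of them. The cAMP response half-site TGACG, present in 23.0% of all genes, was found in *Per1*, *Cry1* and *Cry2*. An E2F site, taken as TTTCCCGC, TTTGGCGC, TTTGCCGC or TTTCGCGC and present in 2.6% of all genes, was found in 0 of the 9 genes. A match describes letters in a short window and is not a binding site.

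Reads on genes ranged from 12665686 to 19499897 per library, so that 3 counts, taken as the detection limit, came to between 0.144 and 0.253 CPM, a limit that covers counting error only. CPM are counts scaled to library size and by TMM over all 24 libraries. Divided by exon length, the median level over the libraries was highest for *Nr1d1* at 44.1 CPM per kb, followed by *Nr1d2* at 17.6, *Per1* at 14.3, *Cry2* at 7.24 and *Per2* at 4.92. *Clock*, *Cry1* and *Per3* lay close together at 3.35, 3.21 and 3.04 CPM per kb. *Arntl* was low at 1.12, and *Npas2* was lowest at 0.154 CPM per kb, with 1 to 65 counts per library. Counting disregarded strand, and the bounds of *Nr1d1* overlap those of *Thra*, on the other strand, by 1075 bases. Reads there cannot be assigned to either gene by strand. How much of the overlap is exon was not measured. The deposited *E2f8* count covers the whole gene and does not check the deletion. It ran from 30.6 to 83.4 CPM in libraries labelled HKO and from 14.8 to 26.3 CPM in Null controls, and all directions below follow the labels. The study assessed the deletion from reads in single exons of *E2f8*, which were not analysed here.

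In HKO livers at 0 h, the activator *Arntl* was higher and the repressors *Per2*, *Per3* and *Nr1d2* were lower than in Null controls. *Arntl* rose 4.73-fold, *Per3* fell 5.27-fold, *Per2* fell 3.15-fold and *Nr1d2* fell 1.64-fold. With edgeR's quasi-likelihood test, adjusted over 12397 genes, 4 of the 10 clock genes passed an adjusted p of 0.05 and a 1.5-fold change, against 0.96% of all genes tested. Over the 10 genes the median log2 fold change was -0.36, and over all genes 0.01. Fewer cells of a type and less RNA per cell cannot be told apart in whole liver.

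*Arntl* (chromosome 7, 113207465 to 113314126 on GRCm38), whose loss alone is known to stop the clock, was at 3.13, 2.48 and 4.29 CPM in the Null controls and at 12.0, 18.5 and 16.5 CPM in HKO. Every HKO mouse lay above every Null control, with a log2 fold change of 2.24 (SE 0.25, edgeR adjusted p = 0.00346). *Npas2*, the CLOCK paralog, had 6, 2 and 12 counts in the Null controls and 18, 65 and 65 counts in HKO. Its log2 fold change was 2.87 (SE 0.66) and did not pass the adjusted threshold (edgeR adjusted p = 0.0866), and at these counts the fold depends on the prior count. *Clock*, which encodes BMAL1's main partner, was at 48.5, 53.2 and 48.3 CPM in Null controls and at 67.2, 67.1 and 68.5 CPM in HKO. The *Clock* values did not overlap either, but the log2 difference of 0.44 (SE 0.09) was under the fold limit, and its edgeR adjusted p was 0.0613.

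Among the period genes, *Per3* (chromosome 4, 151003652 to 151044665) changed most. It was at 64.2, 71.6 and 70.8 CPM in Null controls and at 15.7, 9.67 and 13.8 CPM in HKO, a log2 fold change of -2.40 (SE 0.17, edgeR adjusted p = 0.000374). *Per2* was at 57.1, 61.2 and 61.2 CPM in Null controls and at 25.3, 13.2 and 18.3 CPM in HKO, a log2 fold change of -1.66 (SE 0.20, edgeR adjusted p = 0.00541). The groups did not overlap for either gene, and the HKO mice spread more than the Null controls, with an SD of log2 CPM of 0.46 against 0.06 for *Per2* and 0.36 against 0.09 for *Per3*. *Per1*, the period gene that answers fastest to hormones, was at 117, 144 and 111 CPM in Null controls and at 94.8, 57.3 and 46.6 CPM in HKO, and its log2 difference of -0.90 (SE 0.23) missed the threshold with an edgeR adjusted p of 0.122.

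The cryptochromes and the REV-ERBs each split. *Cry2* was at 56.9 to 60.9 CPM in Null controls and at 33.1 to 46.9 CPM in HKO (log2 difference -0.64, SE 0.14, edgeR adjusted p = 0.0764). *Cry1*, the stronger repressor of the pair, was at 8.04 to 12.6 CPM in Null controls and at 8.30 to 11.5 CPM in HKO, a log2 difference of -0.03 with an SE of 0.22. *Nr1d2* was at 137, 133 and 127 CPM in Null controls and fell to 80.2, 75.5 and 85.8 CPM in HKO (log2 fold change -0.72, SE 0.09, edgeR adjusted p = 0.00794). *Nr1d1*, its paralog and the more abundant of the pair, was at 131 to 141 CPM in Null controls and at 107, 108 and 170 CPM in HKO, so the groups overlapped and the log2 difference was -0.08 (SE 0.17).

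**Figure D1:**
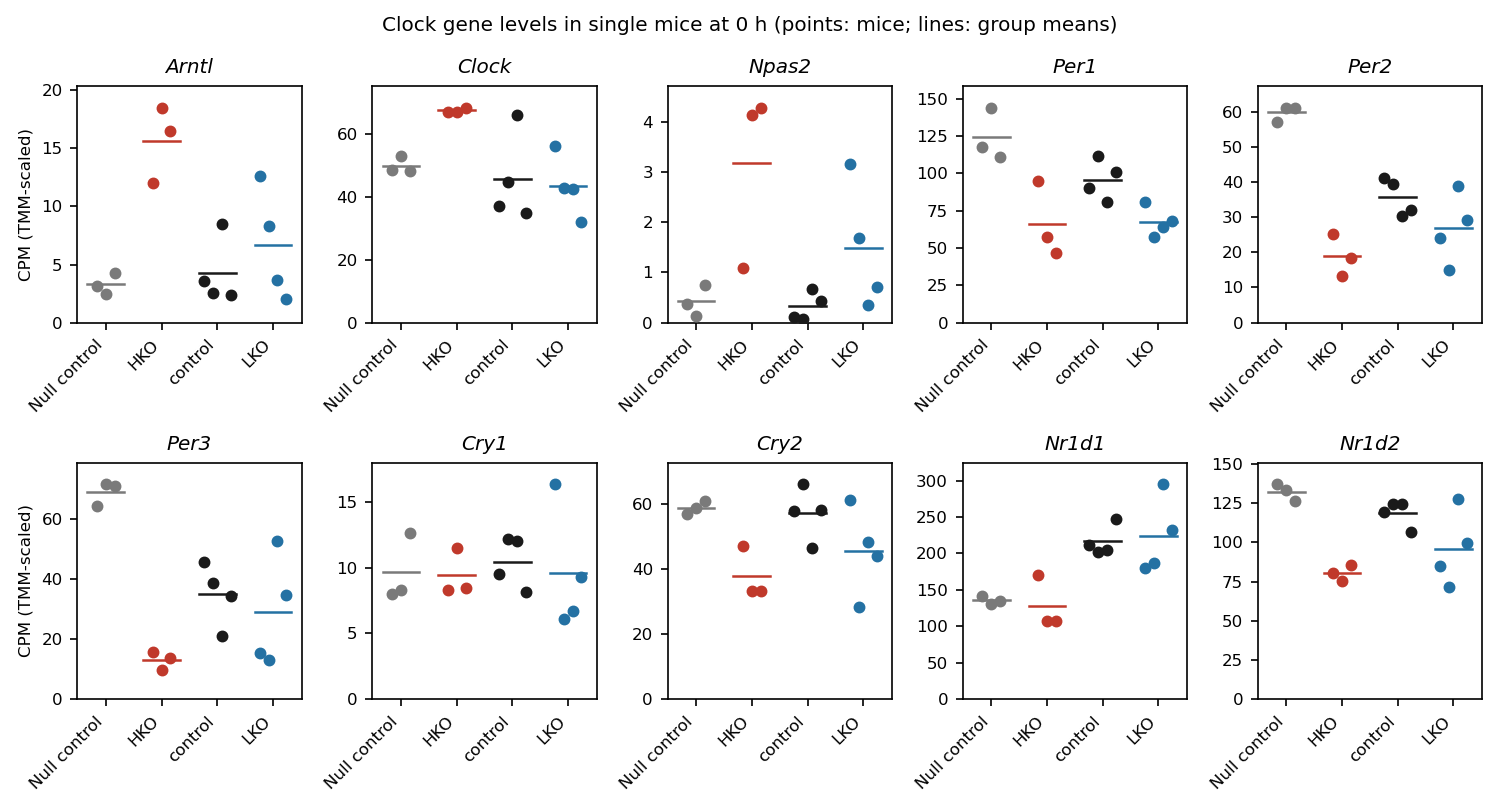
Level of each clock gene in the 14 single mice at 0 h, in TMM-scaled CPM on linear axes that start at 0, with 1 point per mouse and a line at the group mean. The HKO mice sit above the Null controls for Arntl, between 12.0 and 18.5 against 2.48 to 4.29 CPM, and below them for Per2, Per3 and Nr1d2, while LKO and control mice overlap for each gene.

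The mouse HKO replicate 1 was the one nearest the Null controls for *Arntl*, *Npas2*, *Per1*, *Per2*, *Per3* and *Cry2*. Without it, 7 of the 10 genes passed, with *Npas2*, *Per1* and *Cry2* added. *Per2* and *Per3* passed under each of the 15 alternatives tried. A joint fit that shares the spread of all 14 mice ended the call of *Arntl* (edgeR adjusted p = 0.173) and of *Nr1d2* (0.122) with nearly the same fold changes, and left 2 of the 10 genes called.

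Of 16 tested genes in a list of other clock components and regulators, 3 changed in HKO and all were lower. Among them were *Dbp* (log2 fold change -2.70, edgeR adjusted p = 0.0176) and *Tef* (-1.18, 0.018), which encode activators at D-boxes. The list's median log2 fold change was -0.30. DESeq2 called 5 of the 16, with *Hlf* and *Nfil3* added. Their log2 fold changes by edgeR were of opposite sign, -0.61 for *Hlf* and 0.94 for *Nfil3*.

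Of 10 genes that are high in fasting, 0 passed in HKO by edgeR, 6 had an unadjusted p under 0.05, and DESeq2 called 2 (*Fgf21* and *Pdk4*). Of 9 tested genes that are high in feeding, 1 passed, *Thrsp*, which was lower (log2 fold change -2.80, edgeR adjusted p = 0.000374). Of 8 glucocorticoid-responsive genes, a list that includes *Per1*, 0 passed by edgeR, 3 had an unadjusted p under 0.05, and DESeq2 called 3. Their median log2 fold change was -0.61, and their summed level was 2249 to 4043 CPM in HKO and 4078 to 7080 CPM in Null controls. The sums did not overlap, but the mean log2 CPM of the list did, at 6.55 to 7.63 in HKO and 7.23 to 7.95 in Null controls. Of the 6 hepatocyte markers 0 passed by edgeR, 1 had an unadjusted p under 0.05, and DESeq2 called 1, *Tat*, which also answers to glucocorticoids. Their sum was 57619 to 86243 CPM in HKO and 72869 to 74763 CPM in Null controls and overlapped, while their mean log2 CPM did not, at 11.99 to 12.06 in HKO and 12.23 to 12.40 in Null controls. Of the recruited myeloid and lymphocyte markers 0 passed by edgeR, with only 2 and 1 tested. Mean log2 CPM of the myeloid list was -0.32 to 0.41 in HKO and -0.82 to -0.46 in Null controls, while its sums overlapped. Lymphocyte markers summed to 2.35 to 6.96 CPM in HKO and 0.63 to 2.00 CPM in Null controls, while their mean log2 CPM overlapped. The part of these differences in the clock gene result was not tested.

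In LKO livers at 0 h no clock gene passed. With edgeR's quasi-likelihood test 0 of the 10 clock genes and 0 of 12426 genes passed, a background of 0%, while 352 genes and 2 clock genes had an unadjusted p under 0.05. DESeq2 called 3 genes and 0 of the 10. *Arntl* was at 3.60, 2.51, 8.50 and 2.40 CPM in the controls and at 12.6, 8.33, 3.63 and 2.03 CPM in LKO. The lowest and the highest level were thus both LKO mice, and the log2 difference was 0.66 with an SE of 0.57.

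*Per3* divided the same mice the other way. It was at 45.8, 38.7, 21.0 and 34.2 CPM in the controls and at 15.4, 13.1, 52.7 and 34.5 CPM in LKO (log2 difference -0.27, SE 0.40). *Nr1d2* was at 119, 124, 124 and 107 CPM in the controls and at 84.6, 71.8, 128 and 99.5 CPM in LKO (log2 difference -0.31, SE 0.17). LKO replicates 1 and 2 were low and control replicate 3 was not. For *Arntl* and *Per3* together, control replicate 3 and LKO replicates 1 and 2 had high *Arntl* and low *Per3*, and the other 5 mice of this cohort had low *Arntl* and higher *Per3*. *Per1* was at 80.4 to 112 CPM in the controls and at 57.3 to 80.9 CPM in LKO, a log2 difference of -0.50 (SE 0.14, unadjusted p = 0.00502, edgeR adjusted p = 0.999). *Npas2* had at most 8 counts in the controls and 6 to 46 counts in LKO, a log2 difference of 2.21 with an SE of 0.77. *Clock*, *Per2*, *Cry1*, *Cry2* and *Nr1d1* had log2 differences between -0.41 and 0.05, and the groups overlapped for each.

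Whether the effects in HKO and LKO differ was tested as a contrast of the 2 differences, in a fit of all 14 mice. By edgeR 0 of the 10 genes and 0 of 12945 genes passed (0%), and 579 genes had an unadjusted p under 0.05. The contrast was largest for *Per3*, at 2.13 on the log2 scale (SE 0.55, unadjusted p = 0.00145, edgeR adjusted p = 0.722), followed by *Arntl* at -1.59 (SE 0.75) and *Per2* at 1.24 (SE 0.36, unadjusted p = 0.00376). DESeq2 called 21 genes, of which 1 was a clock gene, *Per3*, with an adjusted p of 0.0445. A difference between the models was therefore not shown by the edgeR test, although 4 genes passed in HKO and 0 in LKO. Cohort, virus and age at deletion cannot be told apart from the model.

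**Figure D2:**
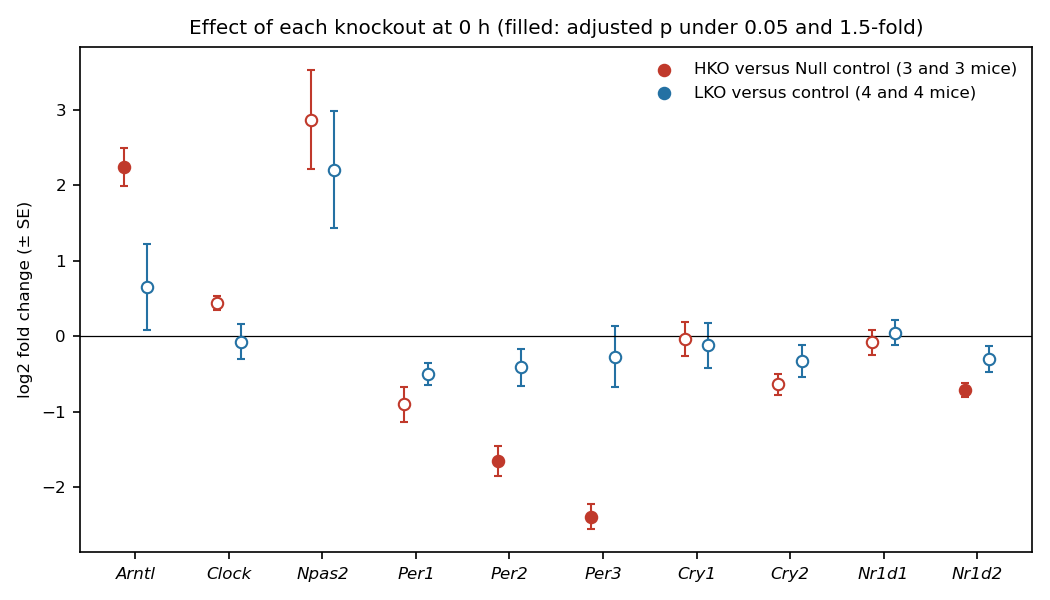
log2 fold change of each clock gene at 0 h with its standard error from edgeR, HKO against 3 Null controls in red and LKO against 4 controls in blue, where filled points passed an adjusted p of 0.05 and a 1.5-fold change. The 4 filled points are Arntl, Per2, Per3 and Nr1d2 in HKO, and each LKO point is open.

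The control groups themselves differed. Null controls had higher *Per2* (1.70-fold, edgeR adjusted p = 0.0109) and *Per3* (2.01-fold, 0.021) and lower *Nr1d1* (1.57-fold lower, 0.0112) than the controls of the LKO cohort. *Nr1d1* was at 131 to 141 CPM in Null controls and at 202 to 247 CPM in the others, without overlap. Of the 9 clock genes tested 3 passed, against 8.21% of 12431 genes, and *Npas2* was not tested because of its low counts. Without Null control replicate 2 0 of the 9 passed, and without Null control replicate 1 only 1 did. Of the 10 fasting-high genes 5 were higher in Null controls, among them *Fgf21* (log2 fold change 2.86) and *Cpt1a* (1.45), and of 9 feeding-high genes 4 were lower, among them *Srebf1* (-2.12) and *Thrsp* (-2.35). The part of fasting state in the clock gene levels was not tested, and cohort, virus and hour of collection cannot be told apart.

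To set the opposed arms of the loop against each other in each library, the log2 CPM of *Arntl* minus that of *Nr1d1* was taken. It was -5.34 ± 0.37 (SD, n = 3) in Null controls and -3.01 ± 0.70 (SD, n = 3) in HKO, and the highest Null control, at -4.93, lay under the lowest HKO mouse, at -3.81. In the LKO cohort it was -5.82 ± 0.89 (SD, n = 4) in controls, spread from -6.61 to -4.57, and -5.33 ± 1.41 (SD, n = 4) in LKO, spread from -6.75 to -3.82. No test was made on this value, since it combines members of the set.

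**Figure D3:**
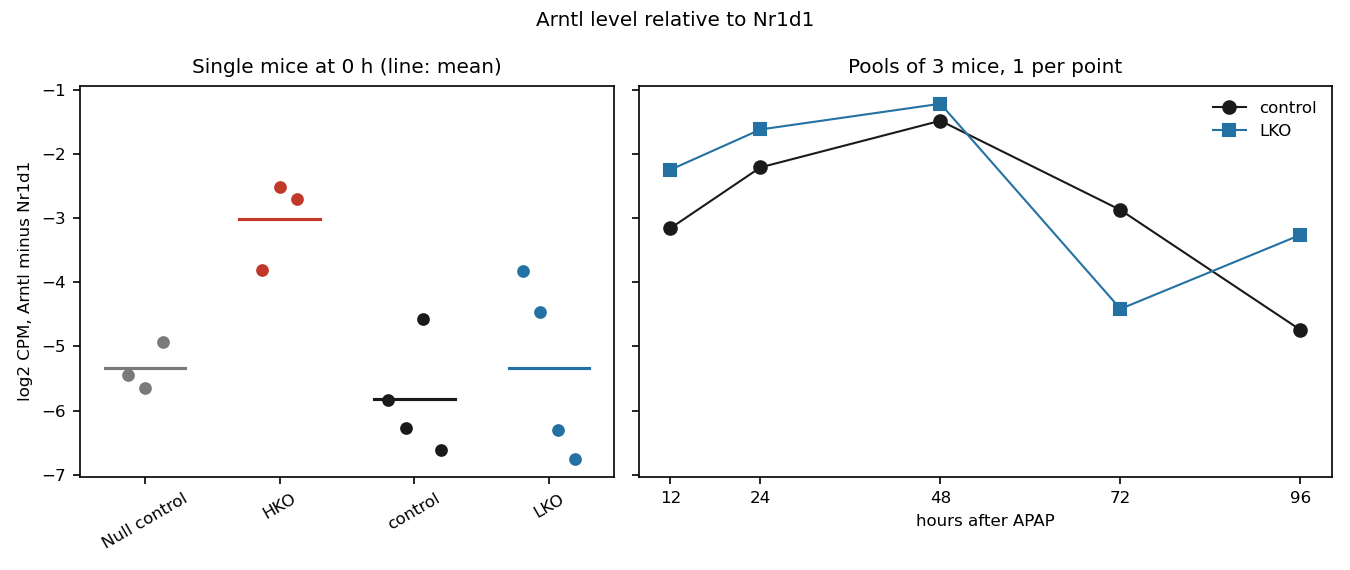
Difference in log2 CPM between Arntl and Nr1d1, for the 14 single mice at 0 h on the left with a line at each group mean, and for the 10 pools by hours after APAP on the right. HKO mice lie above the Null controls, LKO mice spread from -6.75 to -3.82, and the pools peak at 48 h, at -1.48 in control and -1.22 in LKO.

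Mice of 1 group differed more in some clock genes than in others. The SD of log2 CPM within groups, pooled over the 4 groups at 0 h, was 0.81 for *Arntl*, 1.06 for *Npas2* and 0.61 for *Per3*, against a median of 0.29 over 14501 genes. These values lay at the 93.9, 98.6 and 83.6 percentile of all genes. *Clock* (0.29), *Per1* (0.30), *Nr1d1* (0.26) and *Nr1d2* (0.21) varied about as much as the median gene or less. *Npas2* was measured by few counts, so counting error enters its spread.

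The genes whose level was most like that of *Arntl* over the 14 mice were, with Pearson's r of log2 CPM in brackets, *Snx24* (0.908), *Lgalsl* (0.907), *Lrfn3* (0.881), *Clpx* (0.862) and *Asap2* (0.848), out of 10910 genes compared. Those most opposite were *Dbp* (-0.922), *Tef* (-0.896), *Wee1* (-0.876), *Eef2k* (-0.870) and *Fitm1* (-0.867). Within the set, r with *Arntl* was 0.858 for *Npas2*, 0.80 for *Clock*, -0.851 for *Per3*, -0.745 for *Per2* and -0.730 for *Nr1d2*. In the 10 pools, which took no part in that choice, r kept its sign for all 10 and was nearer to 0 for each. Among the first 5 it was 0.118 for *Snx24*, 0.609 for *Lgalsl*, 0.493 for *Lrfn3*, 0.803 for *Clpx* and 0.822 for *Asap2*. Among the opposite 5 it was -0.721 for *Dbp*, -0.673 for *Tef*, -0.323 for *Wee1*, -0.543 for *Eef2k* and -0.638 for *Fitm1*. Within the set, r in the pools kept its sign for *Clock* (0.720), *Npas2* (0.629), *Cry1* (0.555), *Per3* (-0.600) and *Nr1d2* (-0.497), and was of the other sign for *Per1* (0.466 against -0.602 in the mice), *Per2* (0.203), *Cry2* (0.167 against -0.599) and *Nr1d1* (0.0811 against -0.510). These are descriptions without a test. The mice share 2 cohorts and fall into a set with high and a set with low *Arntl*, from 8.33 to 18.5 and from 2.03 to 4.29 CPM, so r is taken over separate sets.

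After APAP, the REV-ERB genes fell, *Arntl*, *Per1* and *Cry1* rose at 12 h, and the clock genes did not move as one block. In a fit of the 18 libraries of the LKO cohort with genotype and time, 6 of the 10 genes changed at some time, *Per1*, *Per3*, *Cry1*, *Cry2*, *Nr1d1* and *Nr1d2*, against 48.4% of 13328 genes. A share of this size is close to that of all genes, so it says little about the clock genes as a set, and the single courses are given instead. Each later value is 1 pool, so the spread comes mainly from the 8 mice at 0 h and from the difference between the genotypes.

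*Nr1d1* had the largest change of the 10 genes. It was at 180 to 295 CPM in the 8 mice at 0 h, at 137 CPM in control and 106 CPM in LKO at 12 h, at 43.8 and 29.8 CPM at 24 h, at 30.6 and 36.2 CPM at 48 h, at 52.6 and 116 CPM at 72 h, and at 71.4 and 137 CPM at 96 h. All 10 pools lay below all 8 mice at 0 h. The fall was largest at 48 h, with a log2 fold change of -2.72 (SE 0.32, edgeR adjusted p = 2.82e-05). *Nr1d2* moved less, from 71.8 to 128 CPM at 0 h to 55.4 and 45 CPM at 24 h (log2 fold change -1.10, SE 0.25, edgeR adjusted p = 0.00339), and was at 86.1 and 125 CPM at 72 h, within the range of the 0 h mice.

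*Per1* rose and then fell. It was at 57.3 to 112 CPM at 0 h and at 273 CPM in control and 165 CPM in LKO at 12 h, a log2 fold change of 1.44 (SE 0.22, edgeR adjusted p = 0.000173). At 24 h it was at 108 and 78.4 CPM, among the mice at 0 h, and at 48 h the control pool, at 90.8 CPM, was among them and the LKO pool, at 30.9 CPM, below them. At 72 h it was at 28.3 and 40.0 CPM and at 96 h at 37.2 and 29.2 CPM, below each of the 8 mice at 0 h, with log2 fold changes of -1.17 (edgeR adjusted p = 0.00592) and -1.30 (0.0418). *Cry1* rose from 6.10 to 16.4 CPM at 0 h to 30.3 and 31.4 CPM at 12 h (log2 fold change 1.67, SE 0.25, edgeR adjusted p = 0.000161). At 48 h both pools, at 21.7 and 17.4 CPM, were also above each mouse at 0 h, and at 72 h both, at 11.5 and 9.90 CPM, were among them. *Cry2* was at 28.3 to 66.1 CPM at 0 h, at 90.6 and 60 CPM at 12 h and at 36.0 and 24.6 CPM at 24 h (log2 fold change at 24 h -0.78, SE 0.26, edgeR adjusted p = 0.0327), where the LKO pool lay below all 8 mice and the control pool among them.

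*Per3* was lower at 24 h. It was at 13.1 to 52.7 CPM at 0 h, at 6.37 CPM in control and 17.8 CPM in LKO at 12 h, and at 9.75 and 12.3 CPM at 24 h (log2 fold change -1.55, SE 0.54, edgeR adjusted p = 0.0398). At 72 h it was at 34.6 and 57.8 CPM. *Per2* was at 15.0 to 41.1 CPM at 0 h, at 53.8 and 37.4 CPM at 12 h and at 20.0 to 32.7 CPM in the later pools, and it did not pass at any single time.

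*Arntl* was at 2.03 to 12.6 CPM at 0 h and at 15.2 CPM in control and 22.3 CPM in LKO at 12 h (log2 fold change 1.83, SE 0.52, edgeR adjusted p = 0.0115), above each mouse at 0 h. It was at 9.39 and 9.63 CPM at 24 h, 10.9 and 15.5 CPM at 48 h and 7.07 and 5.31 CPM at 72 h. Only the LKO pool at 48 h among these 6 was above the mice. At 96 h *Arntl* was at 2.55 CPM in control, among the mice at 0 h, and at 14.1 CPM in LKO, above them. The test of any change over time did not pass for it (edgeR adjusted p = 0.0675), but it did without control mouse 3 (0.0282), LKO mouse 1 (0.0284), the control pool at 96 h (0.0445) or the LKO pool at 96 h (0.0307). *Clock* stayed between 27.4 and 54.5 CPM in the pools against 32.0 to 66.2 CPM at 0 h, and *Npas2* had 3 to 41 counts in the pools. Neither passed at any time.

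**Figure D4:**
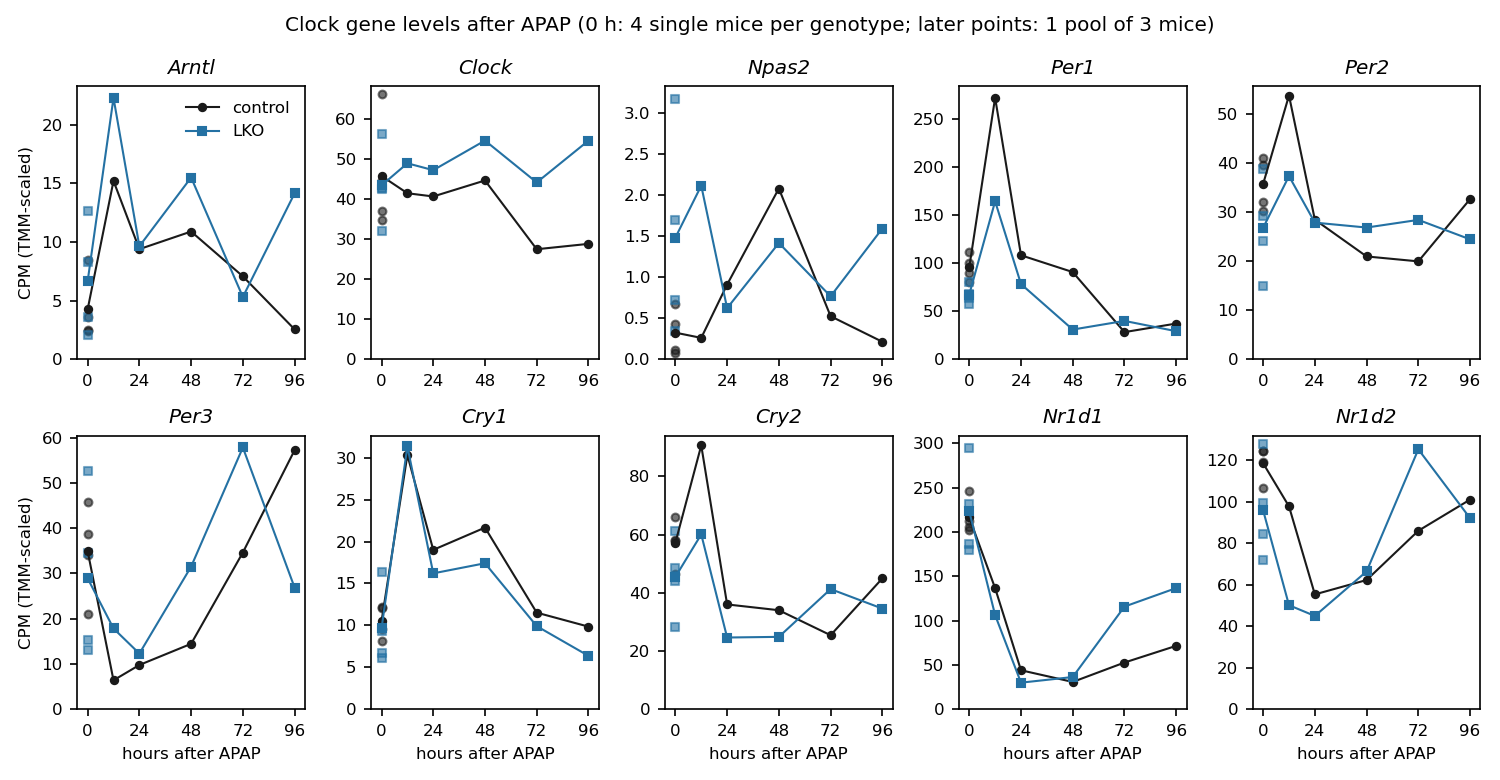
Level of each clock gene by hours after APAP in TMM-scaled CPM on axes that start at 0, control in black and LKO in blue, with the 4 single mice per genotype shown at 0 h and lines drawn from their mean through 1 pool of 3 mice per time. Per1 and Cry1 peak at 12 h in both genotypes, and Nr1d1 is lowest at 24 to 48 h, between 29.8 and 43.8 CPM.

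By single time point, 4 clock genes passed at 12 h (*Arntl*, *Per1* and *Cry1* higher, *Nr1d1* lower), against 31.5% of 13328 genes. At 24 h 5 passed (*Cry1* higher, *Per3*, *Cry2*, *Nr1d1* and *Nr1d2* lower), against 26.1%, and at 48 h 4 passed (*Cry1* higher, *Cry2*, *Nr1d1* and *Nr1d2* lower), against 16.7%. At 72 h *Per1* and *Nr1d1* were lower, 2 genes against a background of 16.8%, and at 96 h *Per1* alone was lower, 1 gene against 0.465%. The weakest of these calls were *Nr1d2* and *Cry2* at 48 h and *Per1* at 96 h, which did not pass in 16, 11 and 13 of 26 alternatives. *Arntl* and *Nr1d1* did not pass at 12 h without the control pool (edgeR adjusted p = 0.0962 and 0.0589) or without the LKO pool (0.0659 and 0.301) of that time. *Per3* no longer passed the test of any change without the control pool at 12 h (0.0777) or 24 h (0.0953) or the LKO pool at 24 h (0.0754) or 72 h (0.069).

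Fewer genes passed at the other times when 1 library was left out. At 24 h 3 genes passed without control mouse 1, 2 or 4, 2 without the control pool and 1 without the LKO pool of that time. At 48 h 2 genes passed without control mouse 1, 2 or 4, without LKO mouse 3, or without the control pool at 96 h. Without the control pool at 48 h only *Nr1d1* of the 4 passed, and *Per1* was added with an edgeR adjusted p of 0.043. Without the LKO pool at 48 h only *Nr1d1* passed. At 72 h 0 genes passed by edgeR without the control pool of that time. *Per1* at 96 h no longer passed without any 1 of the 4 control mice, LKO mouse 1, 2 or 3, or either pool at 24 or 96 h. *Per3* at 12 h, with a log2 fold change of -1.39 and an edgeR adjusted p of 0.0527, passed in 8 of the 26 alternatives. *Nr1d1* at 24 and 48 h passed under all 26 alternatives, as did *Per1* and *Cry1* at 12 h.

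Collections at 24, 48, 72 and 96 h are whole days after the injection and the one at 12 h is not, so the 12 h pools were set against the mean of the later ones. At 12 h *Per1* was 4.41-fold higher, *Cry1* 2.45-fold, *Cry2* 2.33-fold, *Nr1d1* 2.23-fold and *Per2* 1.78-fold, with edgeR adjusted p from 6.74e-06 for *Per1* to 0.0175 for *Per2*. These are 5 of the 10 genes, and all 5 were higher at 12 h, against 34.3% of 13328 genes in either direction and 18.1% higher. *Arntl* (log2 difference 1.11, SE 0.53) and *Per3* (-1.11, SE 0.53) each had an edgeR adjusted p of 0.106. In a fit of the 10 pools alone both passed, *Arntl* higher (0.0458) and *Per3* lower (0.046) at 12 h. *Per3* also passed with DESeq2 (0.0437), and *Arntl* without the LKO pool at 96 h (0.0359). *Nr1d1* at 12 h was thus below the mice at 0 h and above the mean of the later pools, although the LKO pools at 72 and 96 h, at 116 and 137 CPM, were no lower than the LKO pool at 12 h. Without the control pool at 12 h, *Per2* (edgeR adjusted p up to 0.221 over the 18 alternatives) and *Nr1d1* (up to 0.0933) no longer passed, and 3 genes remained called.

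Of 16 tested clock regulators 9 changed with time, a share near the 48.4% of all genes, and the lists below are to be read against the same background. By adjusted p the first 8 were *Dbp*, *Timeless*, *Fbxl21*, *Arntl2*, *Csnk1e*, *Nfil3*, *Bhlhe40* and *Tef*. At its largest change, at 24 h, *Dbp* had a log2 fold change of -3.13, and *Csnk1e*, which encodes a kinase that marks PER for degradation, had one of 1.70 at 12 h. Of the 10 fasting-high genes 9 changed, 4 higher and 5 lower at their largest change. At 12 h 7 passed, 5 of them higher, among them *Pdk4* (log2 fold change 4.13) and *Fgf21* (2.96), and the mean log2 CPM over the list was 8.30 and 8.57 against 6.66 to 7.68 in the 8 mice at 0 h. Their summed level was 9041 to 11826 CPM in the 8 mice at 0 h, 8779.9 and 11792 CPM at 12 h, and 3998 to 6191 CPM from 24 to 96 h. Of 8 glucocorticoid-responsive genes 5 changed, 3 of them higher. All 6 markers of recruited myeloid cells changed, 5 higher and 1 lower (*Spp1*, log2 fold change 1.49 at 48 h and -1.51 at 96 h) at their largest change. At 24 h 5 of them passed and were higher, among them *Gpnmb* (log2 fold change 3.56), *S100a8* (2.67) and *Ccr2* (1.94), and the mean log2 CPM over the list was 1.94 and 2.24 against -0.18 to 1.14 in the 8 mice at 0 h. Their sum was 22.5 to 67.4 CPM from 0 to 24 h and 95.8 to 224 CPM at 48 and 72 h. Of the 6 hepatocyte markers 1 changed, *Hnf4a*. Of 10 feeding-high genes 8 changed, 5 of them lower, and their sum was 2363 to 5347 CPM at 0 h, 1161 to 3678 CPM from 12 to 72 h, and 6470 CPM in control and 12984 CPM in LKO at 96 h. Changes were also called for 4 of 4 stellate cell markers, 3 of them higher, 3 of 4 endothelial markers, all lower, 3 of 4 cholangiocyte markers, 1 higher and 2 lower, 2 of 4 Kupffer cell markers and 1 of 3 tested lymphocyte markers. Summed stellate markers were at 125 to 241 CPM at 0 h and 168 to 472 CPM in the pools. Of the cholangiocyte markers *Sox9* alone passed at 12 h (log2 fold change 3.58). The part of feeding, hormones and cell composition in the clock gene course was not tested.

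Between LKO and control after APAP, 0 of the 10 clock genes passed in a fit of the 10 pools with the time point as a block, against 0.579% of 12782 genes by edgeR. *Clock* was 1.36-fold higher in LKO (unadjusted p = 0.0148, edgeR adjusted p = 0.18) and was the higher of the pair at each of the 5 times. *Per1* was 1.46-fold lower (unadjusted p = 0.0492, edgeR adjusted p = 0.278), and these 2 genes were those with an unadjusted p under 0.05. DESeq2 called 606 genes and 0 of the 10.

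Single pools could still lie far apart, and 1 pool per genotype allows no test at a time. At 12 h, *Per3* was at 6.37 CPM in control and 17.8 CPM in LKO, and *Npas2* was at 0.260 and 2.11 CPM. At 48 h, *Per1* was at 90.8 and 30.9 CPM and *Per3* at 14.4 and 31.5 CPM. At 72 h, *Nr1d1* was at 52.6 CPM in control and 116 CPM in LKO. At 96 h, *Arntl* was at 2.55 CPM in control and 14.1 CPM in LKO and *Npas2* at 0.213 and 1.59 CPM, while *Per3* was at 57.2 and 26.9 CPM and *Clock* at 28.8 and 54.5 CPM. The control pool at 96 h thus had low *Arntl* and high *Per3*, as most single control mice did at 0 h. The LKO pool at 96 h had higher *Arntl* and lower *Per3* than that control pool. Its *Per3* still lay within the 13.1 to 52.7 CPM of the LKO mice at 0 h. The *Arntl* minus *Nr1d1* values at 96 h were -4.74 in the control pool and -3.26 in the LKO pool. At 72 h the order was turned, at -2.87 in control and -4.41 in LKO. Pooling averages 3 mice, so a single mouse out of phase with the others cannot be seen in these values.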

How the data were processed

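RNA sequencing of whole liver gave 24 libraries, 14 of single mice at 0 h and 10 of pools of 3 mice. Per the study's methods, the authors used Trimmomatic on the reads, then STAR on mm10 for both the alignment and the gene counts. The annotation release is not given in the sources used here. The deposited values are raw counts per gene, and the column that disregards strand was used. Rows without a gene (unmapped, multimapping, ambiguous or outside genes) held 18.7% to 39.9% of the counts in a library and were left out of library sizes and tests.

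Groups follow GEO's labels. Counts were tested in R 4.3.3 with edgeR 4.0.16 (filterByExpr, TMM, quasi-likelihood F-test, Benjamini-Hochberg over all genes tested), and the threshold was an adjusted p of 0.05 together with a 1.5-fold change. HKO and LKO were each compared with their own controls. The time course was fitted with genotype and time over the 18 libraries of the LKO cohort, and LKO with control over 12 to 96 h with time as a block. CPM are TMM-scaled, and log2 CPM carry a prior count of 2. The tests were checked on simulated counts. Alternatives were DESeq2 1.42.0, other scalings and filters, a stranded column, a replicate block, a joint fit, and each library left out in turn.

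The members were taken by symbol, and both they and the lists were chosen with earlier results of these data known. All 10 genes are named, clock regulators by adjusted p (up to 8), and genes like *Arntl* as the 5 highest and 5 lowest in r. Over the 8 mice of the LKO cohort no correlation test is given, because their *Arntl* levels fall into 2 separate sets. Some genes of the lists are counted but not reported here by name. Replicate numbers did not pair samples. Detection limits cover counting error only, while SEs and SDs also include the spread between libraries.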

Additional observations from a re-analysis of the deposited data

How the results depend on the processing

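Of the 10 clock genes, 4 were called in HKO. The count was 7 with DESeq2, 7 with a filter of at least 1 count, 7 with the replicate block and 2 in the joint fit of all 14 mice, and between 4 and 7 with 1 mouse left out. Over all genes, 119 were called, against 327 with DESeq2, 255 with at least 1 count, 264 with the replicate block, 31 in the joint fit, and 54, 56 and 297 without Null control replicate 1, Null control replicate 2 and HKO replicate 1. Same-numbered mice had correlated deviations (r over 0.1) in 2 of 7 pairs, and 1 of 7 correlated best with its own number, so the block has no basis in the design. With the block, 0 clock genes were called by edgeR in LKO at 0 h and 0 for the difference between the models. DESeq2 called 1 clock gene for that difference, and 3, 21 and 606 genes for LKO at 0 h, the difference and LKO over 12 to 96 h, against 0, 0 and 74 by edgeR. For LKO over 12 to 96 h edgeR called 42 genes with library size alone, 337 with at least 1 count, 34 with at least 10 counts in every library, 0 without the time block, and 9 to 177 with 1 time point left out, and for the difference it called 2 with at least 1 count. At 24 h, 3 clock genes were called with library size alone and 3 with the stranded column. At 48 h, 2 were called with library size alone, 2 with at least 10 counts in every library, 2 with the stranded column and 2 without the genotype term. At 96 h, 0 were called with library size alone, 2 with DESeq2 and 0 without the genotype term, and over all genes 62 were called against 331 with DESeq2, 41 with library size alone, 29 with the stranded column, 35 without the genotype term, and 11 to 110 with 1 library left out. The cause of these differences was not tested. With 1 library left out, the counts ran from 3 to 6 (12 h), 1 to 5 (24 h), 1 to 5 (48 h), 0 to 3 (72 h), 0 to 1 (96 h), 3 to 6 for 12 h against the later pools, 5 to 7 for any change, and 0 to 3 between the control groups, and stayed at 0 in the LKO comparisons and the difference. Over all genes, leaving out the control pool of that time gave 2079 (12 h), 1569 (24 h), 474 (48 h) and 474 (72 h) calls, and 2925 for 12 h against the later pools, leaving out the LKO pool gave 1143 (24 h), and 233 to 655 were called between the control groups without Null control replicate 1, 2 or 3 or control replicate 1 or 2. With all libraries these counts were 4202 (12 h), 3484 (24 h), 2230 (48 h), 2244 (72 h), 4578 (12 h against the later pools) and 1020 (control groups).

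Signs turned only for values that had not been called, given here as log2 differences. With library size alone, *Cry1* in HKO was 0.0385, *Clock* and *Cry1* in LKO at 0 h were 0.0658 and 0.0147, *Per2* in LKO over 12 to 96 h was 0.0425, and *Npas2* at 12 h against the later pools was -0.118. With the stranded column, *Cry1* was 0.0413 in LKO at 0 h and 0.0684 for the difference between the models. *Npas2* at 12 h against the later pools was -0.103 with DESeq2 and -0.0294 with at least 1 count. With 1 library or time point left out, *Cry1* in HKO ran from -0.2033 to 0.2066 and *Nr1d1* from -0.3339 to 0.0329. In LKO at 0 h, *Clock* ran from -0.2257 to 0.1739, *Cry1* from -0.5042 to 0.0421 and *Nr1d1* from -0.1138 to 0.136. For the difference between the models, *Cry1* ran from -0.4701 to 0.0802 and *Nr1d1* from -0.0392 to 0.3818. In LKO over 12 to 96 h, *Per2* ran from -0.163 to 0.0937 and *Nr1d2* from -0.3312 to 0.0403. For 12 h against the later pools, *Npas2* ran from -1.1592 to 0.5773 and *Nr1d2* from -0.5046 to 0.3386. Between the control groups, *Arntl* ran from -0.5584 to 0.2496, *Cry1* from -0.328 to 0.0299 and *Cry2* from -0.0138 to 0.135. Library size alone moved the median log2 change of all genes by 0.13 in LKO at 0 h, by -0.12 at 12 h against the later pools, and by 0.14, 0.20 and 0.10 at 24, 48 and 72 h. *Npas2* rested on 1 to 65 counts a library, so small changes in it were not detectable at this depth. The correlation of *Arntl* with the other genes over the 8 mice of the LKO cohort was not tested, and its alternatives were not run.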
